A study of Mus musculus with 15 samples.

Results

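Th17 cultures activated by plate-bound antibody (PBAB) were compared with Th9 cultures activated in the same way, using the 4 arrays whose labels name these cultures and this stimulus, 2 per culture, of 15 arrays in the series. All cells were naive CD4+ T cells from the spleen and lymph nodes of 3A9 mice, which carry a transgenic T cell receptor for hen egg lysozyme (HEL), and were sorted with an antibody to that receptor. The Th17 medium contained 3 ng/ml of TGF-beta, 10 ng/ml of IL-6 and 5 ng/ml of IL-1alpha, and it also contained neutralising antibodies, 20 µg/ml of anti-IFN-gamma and 10 µg/ml each of anti-IL-4 and anti-IL-12. For Th9 the protocol lists 10 ng/ml of IL-4 with 1 ng/ml of TGF-beta and no neutralising antibody. In place of splenocytes both had 1 µg/ml of anti-CD3 with 10 µg/ml of anti-CD28 fixed to the plate, and RNA was taken after 4 days. The cultures thus differed in IL-4, IL-6, IL-1alpha, the dose of TGF-beta and the neutralising antibodies, and shared the plate-bound antibodies. The labels call the replicates biological without tying them to animals, and give no age or sex. The same pair under the other activation of the series, HEL presented by irradiated splenocytes (HA), and the Th1 PBAB arrays are used below for comparison.

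Helper T cells take on cytokine programmes that depend on the cytokines present when the receptor is first engaged. IL-6 acts through the transcription factor STAT3 and, with TGF-beta, induces IL-17 in Th17 cells. IL-4 acts through STAT6 and induces GATA3, the factor of Th2 cells, and together with TGF-beta it favours IL-9 in place of IL-4 as the main product, which defines Th9 cells.

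Each gene was represented by 1 probe set, and levels are the authors' log2 RMA values, which compare samples but not different genes. A difference is Th17 minus Th9 under PBAB on the log2 scale ± SE, from a limma fit of all 15 arrays with n = 2 arrays in each group, and a gene is called when its Benjamini-Hochberg adjusted p over 15498 genes is under 0.05. No detection calls were used, so a value under the filter threshold of 5.07 cannot be told from background, and a fold is given only where both group means exceed it. Arrays are written as Th17 1 or Th9 2, after culture and replicate number. The 4 arrays correlated with each other at 0.974 to 0.989 over all probe sets, and the 2 arrays of a culture were closer to each other than to any array of the other culture. The 18S signal was 11.17 and 9.98 in Th17 arrays 1 and 2, against 11.11 and 9.98 in Th9 arrays 1 and 2, and the bioB control was 9.49 and 10.70 against 9.52 and 10.70. These controls thus moved with the replicate number and not with the culture. Between the 3' and 5' probe sets of actin the difference was 0.22 and 0.12 in Th17 arrays, against 0.20 and 0.16 in Th9 arrays, which overlapped. Cd4 was at 10.04 and 9.72 in Th17 arrays, against 10.36 and 10.18 in Th9 arrays, and was not called (adjusted p = 0.64). Cd3e, a chain of the receptor complex, was at 10.90 and 10.56 in Th17 arrays, against 10.85 and 10.79 in Th9 arrays, and was not called (adjusted p = 0.957).

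Th17 cultures had more signal for the cytokines Il17a and Il21, for Serpinb1a, an inhibitor of granule proteases, and for Timp1, an inhibitor of metalloproteinases. They had less for the type 2 genes Gata3, Il4, Il5 and Il13, for the granule genes Gzmb and Nkg7, and for 9 of 19 mitosis and 11 of 20 DNA replication genes. In all 987 genes were called, 6.37% of those tested, with 408 higher (2.63%) and 579 lower (3.74%) in Th17. Of these, 265 higher and 369 lower differed by at least 2-fold. In every called gene the 2 groups did not overlap, which was also so in 43.3% of all tested genes. The median difference of all tested genes was -0.02. Counts called in the gene lists below are read beside the 2.63% higher and 3.74% lower over all tested genes. With the replicate number as a block, 2351 genes were called, 944 higher and 1407 lower in Th17, among them all 987. Calls below are of the fit without this block unless stated, so a gene given as not called may be called with it. Leaving out 1 array left 509 calls without Th17 1, 458 without Th17 2, 467 without Th9 1 and 502 without Th9 2. In the account below, a call is lost where the adjusted p reaches 0.05 when an array is left out. Since the arrays are of bulk RNA, fewer cells of a type and less RNA per cell cannot be told apart.

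**Figure D1:**
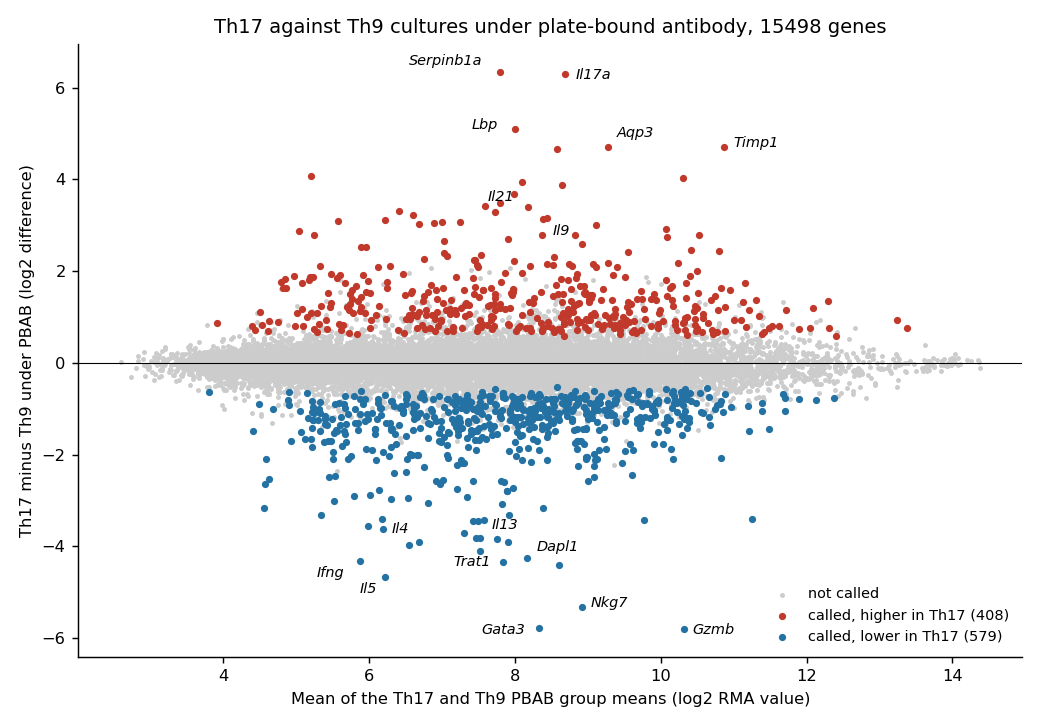
Difference between Th17 and Th9 cultures under PBAB (log2, y axis) against the mean of the 2 group means (log2 RMA value, x axis) for 15498 genes, with 408 genes called higher in Th17 in red and 579 called lower in blue. Il17a and Serpinb1a lie at the top, and Gzmb and Gata3 at the bottom.

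Of 15 tested genes of a Th17 lineage list, 8 were higher in Th17, none was lower and 7 were not called, with a list median of 1.16. Il17a, the cytokine that names the lineage, read 11.85 and 11.82 in Th17 arrays, against 5.41 and 5.64 in Th9 arrays. Both Th17 arrays were far above both Th9 arrays, and the Th9 arrays stood close to the Th1 PBAB arrays, at 5.42 and 5.73. The difference was 6.31 ± 0.30, or 79.2-fold (limma adjusted p = 4.72e-06). Il21, which acts back on T cells through STAT3, read 9.96 and 9.79 in Th17 arrays, against 6.89 and 6.05 in Th9 arrays, without overlap, and differed by 3.41 ± 0.39 (10.6-fold, adjusted p = 0.000676). Rora, a nuclear receptor that acts on Il17a, read 11.71 and 11.58 in Th17 arrays, against 9.16 and 9.23 in Th9 arrays. Its Th9 arrays were again near the Th1 PBAB arrays (9.44 and 9.66), and the difference was 2.45 ± 0.29 (adjusted p = 0.000738). Pdpn, a membrane glycoprotein, and Ltb4r1, a receptor for leukotriene B4, differed by 3.94 ± 0.28 and 3.67 ± 0.29, or 15.3-fold and 12.7-fold. These 5 calls held without any 1 of the 4 arrays. Il17f, Il22 and Il23r were not matched to a probe set with 1 symbol and were not analysed here.

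Maf, a factor that acts on Il4, Il10 and Il21, was high in both cultures, at 12.04 and 11.53 in Th17 arrays, against 10.67 and 10.58 in Th9 arrays. The Th1 PBAB arrays were at 6.22 and 5.87, so both cultures lay well above them. The difference of 1.16 ± 0.27 (adjusted p = 0.0282) was lost without Th17 1, Th9 1 or Th9 2 (0.113 to 0.202) and with the mean of all probe sets (0.108). The calls of Tmem176a, a membrane protein (1.47 ± 0.26), and of Il1r1, the receptor for IL-1 (0.96 ± 0.23), were also lost, that of Tmem176a without Th17 1 or Th9 2 (0.0705 and 0.0686) and with the mean of all probe sets (0.093), and that of Il1r1 without any 1 array (0.0705 to 0.242). The aryl hydrocarbon receptor gene Ahr was at 11.41 and 10.97 in Th17 arrays, against 10.34 and 9.38 in Th9 arrays, without overlap, and was not called (1.33 ± 0.40, adjusted p = 0.0813), but it was with the replicate block (0.00079). Ccr6 and its ligand Ccl20 were not called under PBAB, at 0.82 ± 0.30 and 0.44 ± 0.27. Leaving out 1 array left 5 to 7 higher genes of this list, with 5 without Th17 1 or Th9 2.

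The window from 250 bases before to 50 after the start of Il17a is shown because Il17a had the largest fold change among genes above the threshold in both groups. It lies at chr1:20730655-20730954 on the plus strand of GRCm38.p6, as given by RefSeq. Capitals mark AGGTCA, a motif bound by nuclear receptors, the product of Rora among them, here on the reverse strand from 120 bases before the start, and TGANTCA, the AP-1 motif, from 244 bases before it.
Il17a: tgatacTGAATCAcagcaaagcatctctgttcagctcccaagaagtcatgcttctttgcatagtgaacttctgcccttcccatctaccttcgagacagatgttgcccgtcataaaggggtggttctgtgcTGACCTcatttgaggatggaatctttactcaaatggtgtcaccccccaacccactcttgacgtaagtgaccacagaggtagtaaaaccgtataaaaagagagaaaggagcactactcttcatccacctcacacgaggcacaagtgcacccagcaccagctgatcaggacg
On either strand AGGTCA was present in 16.3% and TGANTCA in 7.8% of all 32851 such windows. Of 17 windows of 12 tested Th17 lineage genes, 4 held AGGTCA and 1 held TGANTCA. A match describes the letters only.

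**Figure D2:**
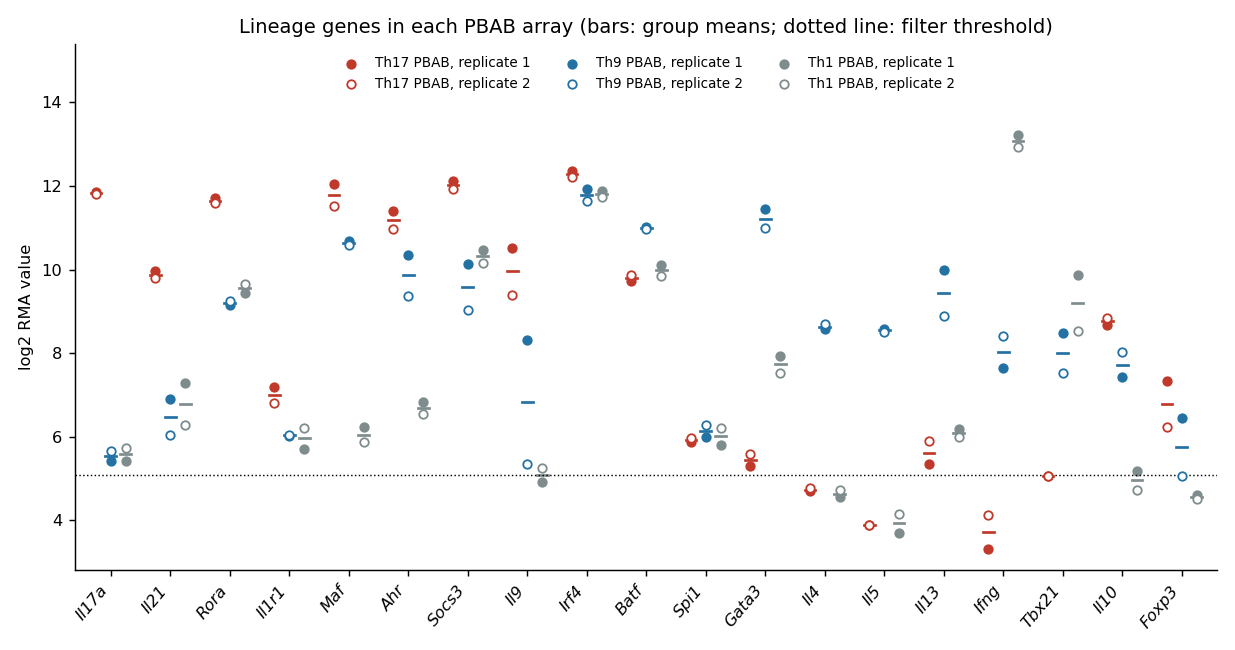
Level of 19 lineage genes (log2 RMA value, y axis) in each PBAB array of Th17 (red), Th9 (blue) and Th1 (grey) cultures, with replicate 1 filled, replicate 2 open, bars at the group means and the filter threshold of 5.07 dotted. Il17a, Il21 and Rora are high in both Th17 arrays, Gata3, Il4, Il5 and Il13 in both Th9 arrays, and Ifng in both Th1 arrays, while Il9 spans 8.31 to 5.33 within the Th9 arrays; heights are not compared between genes.

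Il9, the cytokine that names the Th9 lineage, had the higher signal in Th17 cultures. It read 10.52 and 9.38 in Th17 arrays, against 8.31 and 5.33 in Th9 arrays and 4.92 and 5.24 in Th1 PBAB arrays. Th9 2 was close to the Th1 arrays, and both Th9 arrays were below both Th17 arrays. The difference was 3.13 ± 0.80 (8.77-fold, adjusted p = 0.0463). This call was lost without Th17 1, Th17 2 or Th9 2 (0.273, 0.0976 and 0.219), without the filter (0.05), with centred arrays (0.0526), with the mean of all probe sets (0.0509) and with the 4 arrays fitted alone (0.0728), while the difference stayed above 0 in each. Without the filter and with the mean of all probe sets, the Il9 difference itself was the same, at 3.13, and only the other genes in the fit changed. The size of the Il9 difference depended on the Th9 arrays, at 4.62 without Th9 1 and 1.64 without Th9 2. Under HA, on other arrays, Il9 read 9.01 and 10.41 in Th17 arrays, against 5.39 and 6.29 in Th9 arrays, a difference of 3.86 ± 0.80 (adjusted p = 0.0219, lost without Th17 HA 2, Th9 HA 1 or Th9 HA 2 at 0.165, 0.132 and 0.0634). The differences under PBAB and HA did not differ by the test used (-0.73 ± 1.14, adjusted p = 0.871).

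Of 11 tested Th9 lineage genes, 2 were higher, 1 was lower and 8 were not called, with a median of -0.21. Smad3, a signal transducer of TGF-beta, read 9.95 and 9.63 in Th17 arrays, against 8.37 and 8.26 in Th9 arrays, without overlap, and differed by 1.47 ± 0.23 (adjusted p = 0.00403). Batf, a partner of IRF4 at T cell cytokine genes, read 9.71 and 9.87 in Th17 arrays, against 11.03 and 10.97 in Th9 arrays. It was the called member that was higher in Th9 (-1.21 ± 0.22, adjusted p = 0.00852), and its call was lost without Th17 1 or Th9 1 (0.0675 and 0.0621). Spi1, which encodes PU.1, a factor known to act on Il9, was at 5.87 and 5.97 in Th17 arrays, against 6.0 and 6.27 in Th9 arrays, and Irf4 at 12.35 and 12.21 against 11.93 and 11.65. Neither was called (-0.21 ± 0.18 and 0.49 ± 0.36). Il17rb, the receptor of IL-25, was at 4.99 and 4.92 in Th17 arrays, against 5.63 and 6.04 in Th9 arrays, and was called only with the replicate block, with values quantile-normalized again or with array weights (adjusted p = 0.0157, 0.0298 and 0.0446).

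The start of Il9 is shown for comparison with that of Il17a, since these genes name the 2 lineages and both were higher in Th17. The window lies at chr13:56482208-56482507 on the minus strand of GRCm38.p6 in RefSeq, and capitals mark TTC and GAA with any 4 bases between them, a palindromic motif bound by STAT6, from 184 bases before the start and TGANTCA from 140 bases before it.
Il9: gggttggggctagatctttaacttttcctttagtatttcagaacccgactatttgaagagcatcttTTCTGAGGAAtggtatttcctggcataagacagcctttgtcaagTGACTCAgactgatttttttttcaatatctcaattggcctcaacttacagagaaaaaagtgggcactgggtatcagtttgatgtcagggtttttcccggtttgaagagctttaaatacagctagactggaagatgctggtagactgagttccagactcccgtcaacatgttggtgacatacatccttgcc
This STAT6 motif was present in 7.0% of all windows, and the marked motifs did not overlap.

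The type 2 genes Gata3, Il4, Il5 and Il13 were lower in Th17 than in Th9 cultures, and Il4, Il13 and Il5 lie close together on chromosome 11. Gata3, the defining factor of Th2 cells, read 5.29 and 5.58 in Th17 arrays, against 11.44 and 10.99 in Th9 arrays. The Th1 PBAB arrays, at 7.94 and 7.53, stood between them. The difference was -5.78 ± 0.40 (55.1-fold lower, adjusted p = 4.63e-05). Il4 was at 4.69 and 4.78 in Th17 arrays, against 8.58 and 8.69 in Th9 arrays, and Il5 at 3.89 and 3.87 against 8.59 and 8.49. Il13 read 5.34 and 5.89 in Th17 arrays, against 9.98 and 8.88 in Th9 arrays. In all 3 the Th17 arrays were at or near the Th1 PBAB levels (4.55 and 4.72 for Il4, 3.70 and 4.15 for Il5, 6.19 and 6.0 for Il13). The differences were -3.90 ± 0.18 for Il4 (adjusted p = 4.72e-06), -4.66 ± 0.24 for Il5 (5.29e-06) and -3.82 ± 0.36 for Il13 (0.000232), and the Th17 means of Il4 and Il5 were under the filter threshold.

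In RefSeq on GRCm38.p6, Il4 lies at chr11:53612460-53618665, Il13 at chr11:53631323-53634702 and Il5 at chr11:53720794-53725103. Of the 16 tested members of the type 2 and IL-4 response list, 6 were lower in Th17, none was higher and 10 were not called, with a median of -0.27. Epas1, a hypoxia-inducible factor, read 5.39 and 5.73 in Th17 arrays, against 8.93 and 9.83 in Th9 arrays, and differed by -3.82 ± 0.31 (14.1-fold lower, adjusted p = 8.92e-05). The chemokine receptor Ccr8 differed by -1.02 ± 0.26, a call lost without any 1 array (adjusted p = 0.0957 to 0.26) and with centred arrays (0.061). Il4ra, a chain of the IL-4 receptor, was at 10.64 and 10.42 in Th17 arrays, against 9.89 and 9.96 in Th9 arrays, and was called only with the replicate block (0.0497). The factor Stat6, the feedback genes Cish and Socs1 and the receptor Ccr4 were not called, at -0.21, 0.21, -0.01 and -0.03.

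Of 14 tested genes of an IL-6 and STAT3 response list, 3 were higher in Th17, 1 was lower and 10 were not called, with a median of 0.40. Socs3, the feedback inhibitor induced by STAT3, read 12.11 and 11.92 in Th17 arrays, against 10.14 and 9.03 in Th9 arrays and 10.47 and 10.16 in Th1 PBAB arrays. Both Th17 arrays stood above all others, and the difference was 2.43 ± 0.38 (5.39-fold, adjusted p = 0.00396). The costimulatory receptor Icos differed by 1.45 ± 0.26, a call lost without Th17 1 or Th9 2 (adjusted p = 0.0779 and 0.0576). Il6ra, a chain of the IL-6 receptor, differed by 1.02 ± 0.26, lost without Th17 2, Th9 1 or Th9 2 (0.106 to 0.305). Il6ra was also lost under 5 other settings (0.0502 to 0.118), namely no filter, centred arrays, the mean of all probe sets, the 4 arrays alone and an intensity trend. The member that was lower was Prdm1, which encodes BLIMP-1, a repressor in effector lymphocytes, at 3.49 and 3.87 in Th17 arrays, against 6.66 and 7.34 in Th9 arrays. Its Th17 arrays were below the filter threshold and both Th9 arrays above it (-3.32 ± 0.34, adjusted p = 0.000321).

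TGF-beta was in both media at different doses. Of 16 tested genes of the TGF-beta response, 1 was higher in Th17 (Smad3, above), 1 was lower and 14 were not called, with a median of 0.48. With the replicate block 6 were higher and 1 was lower, beside 944 and 1407 of all 15498 genes. The lower gene of the main fit was Itgae, the CD103 integrin chain, at 6.10 and 6.61 in Th17 arrays, against 7.09 and 8.15 in Th9 arrays. Its difference of -1.26 ± 0.32 (adjusted p = 0.0445) was lost without Th17 1, Th17 2 or Th9 2 (0.0856 to 0.273), with values quantile-normalized again (0.0662) and with the 4 arrays alone (0.0854). Among 14 regulatory T cell genes, 2 were higher, 2 (Itgae and Ebi3) were lower and 10 were not called. Gpr83 and Nt5e, a G protein-coupled receptor and the ectonucleotidase CD73, were higher by 1.70 ± 0.26 and 1.49 ± 0.19, and Ebi3, a subunit of IL-27 and IL-35, was lower (-1.18 ± 0.26), lost without Th17 1, Th9 1 or Th9 2 (0.0828 to 0.183). Foxp3, the defining factor of regulatory T cells, read 7.33 and 6.24 in Th17 arrays, against 6.44 and 5.06 in Th9 arrays. The groups overlapped, and Foxp3 was not called (1.03 ± 0.43, adjusted p = 0.229), except without Th9 1 (0.0493). Il10, an anti-inflammatory cytokine, read 8.68 and 8.85 in Th17 arrays, against 7.42 and 8.02 in Th9 arrays, and was not called (1.04 ± 0.61, adjusted p = 0.464), except with the 4 arrays fitted alone (0.0462).

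Of 14 tested Th1 lineage genes, 5 were lower in Th17, 1 was higher and 8 were not called, with a median of -0.53. Ifng, the defining Th1 cytokine, read 3.32 and 4.13 in Th17 arrays, against 7.65 and 8.41 in Th9 arrays and 13.21 and 12.94 in Th1 PBAB arrays. The Th9 arrays lay between the others, and the Th17 arrays were under the filter threshold (-4.31 ± 0.48, adjusted p = 0.000554). Tbx21, which encodes T-bet, followed the same order, at 5.05 and 5.07 in Th17 arrays, against 8.48 and 7.53 in Th9 arrays, with Th1 PBAB arrays at 9.87 and 8.52 (-2.95 ± 0.43, adjusted p = 0.00246). Fasl, the death ligand, was lower by 9.9-fold (-3.31 ± 0.32), and Irf1, an interferon-induced factor, by 1.99-fold (-1.0 ± 0.16). Il12rb2, a chain of the IL-12 receptor, was lower (-1.47 ± 0.32), lost without Th17 1, Th17 2 or Th9 2 (adjusted p = 0.105 to 0.152). Il18r1, a chain of the IL-18 receptor, was the member that was higher, at 6.54 and 6.76 in Th17 arrays, against 4.69 and 5.26 in Th9 arrays, but far below the 10.30 of both Th1 PBAB arrays (1.68 ± 0.20, adjusted p = 0.000953).

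Of 14 tested genes of the cytotoxic granule, 4 were lower in Th17, none was higher and 10 were not called. Gzmb, granzyme B, read 6.07 and 8.76 in Th17 arrays, against 12.95 and 13.47 in Th9 arrays and 12.28 and 12.52 in Th1 PBAB arrays. Both Th17 arrays were low, Th17 1 most, and the difference was -5.80 ± 0.81 (55.6-fold lower, adjusted p = 0.00211). Its size depended on the Th17 arrays, at -4.46 without Th17 1 and -7.14 without Th17 2, and it was called in both. Nkg7, a granule membrane protein, read 5.28 and 7.23 in Th17 arrays, against 11.36 and 11.80 in Th9 arrays (-5.33 ± 0.66, adjusted p = 0.00105), with -4.35 without Th17 1 and -6.30 without Th17 2. Gzma, granzyme A, read 5.57 and 7.23 in Th17 arrays, against 9.36 and 12.23 in Th9 arrays, each culture spanning a wide range without overlap. Its difference of -4.40 ± 0.91 (adjusted p = 0.0175) was lost without Th17 1 or Th9 2 (0.143 and 0.109), and ranged from -5.83 without Th9 1 to -2.96 without Th9 2. Serpinb9, the granzyme B inhibitor, was lower by a difference of -1.71 ± 0.23, with its Th17 mean under the threshold. Perforin, Prf1, was not called, at 5.9 and 6.32 in Th17 arrays, against 6.10 and 6.89 in Th9 arrays. Genes that mark CD8 or gamma-delta T cells, which a CD4 sort should leave out, were also higher in replicate 2 of each culture. Their mean over 4 tested genes was 5.37 and 6.51 in Th17 arrays, against 5.99 and 7.71 in Th9 arrays, none was called, and Cd8a read 4.64 and 6.52 against 6.22 and 8.37. Over 7 tested NK cell markers, the mean was 6.0 and 6.67 in Th17 arrays, against 6.81 and 7.99 in Th9 arrays, with 2 higher (Klrd1 and Klre1) and 2 lower (Gzma and Nkg7), and the Klre1 call was lost without any 1 array (0.0571 to 0.252). The NK cell mean includes Gzma and Nkg7, which are granule genes described above, so it is not separate from them. With the 4 arrays alone Klre1 was also not called (adjusted p = 0.0861). Ncr1, a defining receptor of NK cells, was under the threshold in all 4 arrays. The part of such cells in the granule genes was not tested.

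Among the 15 largest higher genes, several were in none of the lists above. Serpinb1a read 10.85 and 11.06 in Th17 arrays, against 3.97 and 5.26 in Th9 arrays, and 5.82 and 6.43 in Th1 PBAB arrays. Its Th9 mean was under the threshold, so the fitted difference of 6.34 ± 0.44 (adjusted p = 4.63e-05) has no measured lower level and is given without a fold. Timp1 read 13.44 and 12.99 in Th17 arrays, against 8.87 and 8.16 in Th9 arrays, while the Th1 PBAB arrays, at 13.47 and 12.80, were as high as the Th17 ones. The Th9 arrays were thus the ones set apart (4.70 ± 0.55, 26-fold, adjusted p = 0.000769). Aqp3, a channel for water and glycerol, read 11.89 and 11.35 in Th17 arrays, against 7.37 and 6.47 in Th9 arrays (4.70 ± 0.33, 26-fold). Lbp, the lipopolysaccharide-binding protein, read 11.18 and 9.90 in Th17 arrays, against 5.19 and 5.71 in Th9 arrays (5.09 ± 0.37, 34-fold), with 4.45 without Th17 1 and 5.73 without Th17 2. For all these genes the Th17 and Th9 arrays did not overlap, and the calls held without any 1 array.

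Also among the 15 largest higher genes were the secreted protein gene Crispld2 (4.67 ± 0.34), the B cell coactivator Pou2af1 (4.07 ± 0.33, Th9 mean under the threshold), the growth factor-binding protein Igfbp4 (4.03 ± 0.71) and the protein C receptor Procr (3.88 ± 0.35). The rest were the sphingosine phosphate receptor S1pr3 (3.49 ± 0.54), the NK receptor subunit Klrd1 (3.41 ± 0.61) and the costimulatory ligand Cd86 (3.32 ± 0.34, Th9 mean under the threshold). The call of Igfbp4 was lost without Th17 1 or Th9 2 (adjusted p = 0.0664 and 0.0617), and that of Klrd1 without Th17 2 (0.0646). Among the 15 largest lower genes was Trat1, a transmembrane adaptor of the T cell receptor, at 5.38 and 5.96 in Th17 arrays, against 10.00 and 10.02 in Th9 arrays. The Th1 PBAB arrays stood between, at 8.28 and 7.99 (-4.34 ± 0.24, 20.2-fold lower, adjusted p = 9.3e-06). Dapl1 read 6.04 and 6.05 in Th17 arrays, against 10.46 and 10.13 in Th9 arrays and 10.31 and 9.88 in Th1 PBAB arrays, so that the Th17 arrays were the ones set apart (-4.25 ± 0.21, 19-fold lower, adjusted p = 4.72e-06). Tbc1d4, a regulator of glucose transporter traffic, was lower by 17.1-fold (-4.09 ± 0.54). Tnfsf10, the ligand TRAIL, and Penk, the enkephalin precursor, were lower by 14.9-fold and 14.2-fold, and Gpm6b, a membrane glycoprotein, differed by -3.96 ± 0.50 with its Th17 mean under the threshold.

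Among 25 tested cytokine receptor genes, 5 were higher in Th17, 4 were lower and 16 were not called. For this list and those that follow, 2.63% of all tested genes were called higher and 3.74% lower in the fit without the replicate block. Besides Il1r1, Il6ra, Il18r1 and Il12rb2 above, Il17ra, a subunit of the IL-17 receptor, was higher, at 10.63 and 10.39 in Th17 arrays, against 9.02 and 8.88 in Th9 arrays (1.56 ± 0.19, adjusted p = 0.000961). Ifngr2, a chain of the IFN-gamma receptor, was higher by 1.21 ± 0.23, lost without Th17 2 or Th9 1 (adjusted p = 0.0911 and 0.0948). The lower members Il7r, Il10ra and Tgfbr3, receptor chains for IL-7, IL-10 and TGF-beta, differed by -1.22 ± 0.29, -1.22 ± 0.30 and -0.80 ± 0.16. The call of Il7r was lost without Th17 1 or Th9 2 (0.247 and 0.224) and with the 4 arrays alone (0.0574), and those of Il10ra and Tgfbr3 without any 1 array (0.0672 to 0.264 and 0.058 to 0.0891). With centred arrays Il10ra was also not called (adjusted p = 0.0554). Of 17 other T cell cytokines, 2 were lower, namely Tnfsf11, the ligand RANKL (-2.23 ± 0.29), and Tnfsf8, the ligand of CD30 (-1.52 ± 0.21), and 15 were not called. Il2 was under the threshold in all 4 arrays. Csf2, which encodes GM-CSF, overlapped between the cultures, at 6.22 and 7.44 in Th17 arrays, against 7.76 and 7.11 in Th9 arrays.

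Of 23 tested trafficking receptors and integrins, 2 were higher, 4 were lower (Ccr8 and Itgae above, Itgb3 and Itgav) and 17 were not called. Gpr15, a homing receptor for the large intestine, read 7.64 and 7.93 in Th17 arrays, against 4.74 and 4.58 in Th9 arrays, which were under the threshold (3.12 ± 0.23, adjusted p = 5.61e-05). S1pr1, the receptor for exit from lymph nodes, was higher by 1.59 ± 0.30, lost without Th17 1, Th17 2 or Th9 2 (adjusted p = 0.0565 to 0.0879). The integrin chain Itgb3 read 6.19 and 6.89 in Th17 arrays, against 8.27 and 10.03 in Th9 arrays. It and its partner Itgav were lower (-2.60 ± 0.52 and -1.04 ± 0.21), both lost without Th17 1 or Th9 2 (0.0754 to 0.116). Of 14 chemokine genes 2 were lower and 12 were not called. These were Ccl3, at 4.31 and 4.28 in Th17 arrays, against 6.48 and 7.06 in Th9 arrays (-2.47 ± 0.40), and Ccl4 (-1.93 ± 0.33), whose call was lost without Th17 1 (0.0615).

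Among 14 costimulatory genes, 3 were higher (Cd86 and Icos above, and Tnfrsf25, the death receptor DR3, by 2.09 ± 0.25), 2 were lower and 9 were not called. The lower ones, Cd83 (-2.10 ± 0.48) and Slamf6 (-1.22 ± 0.30), were lost without any 1 array (adjusted p = 0.116 to 0.146 and 0.101 to 0.193). Slamf6 was also not called with the mean of all probe sets (adjusted p = 0.271). Of 12 inhibitory receptors and ligands, 3 were lower and 9 were not called. Pdcd1lg2, the ligand PD-L2, read 6.81 and 7.19 in Th17 arrays, against 9.13 and 8.94 in Th9 arrays (-2.03 ± 0.22, adjusted p = 0.000408), and Cd274, the ligand PD-L1, 7.74 and 8.19 against 9.04 and 9.31 (-1.21 ± 0.19, adjusted p = 0.00418). Their receptor Pdcd1 was at -0.93 ± 0.24, a call lost without any 1 array (0.0949 to 0.273), without the filter (0.0502), with centred arrays (0.0628) and with an intensity trend (0.0526). Lag3, at 8.42 and 8.07 in Th17 arrays, against 10.63 and 10.31 in Th9 arrays, did not overlap and was not called (-2.22 ± 0.66, adjusted p = 0.0809). With the replicate block 5 members were lower.

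Genes of naive and memory T cell quiescence gave 3 higher, 2 lower and 9 not called of 14, with a median of 0.55. Txk, a kinase of T cell receptor signalling, was higher at 9.12 and 9.40 in Th17 arrays, against 6.29 and 6.82 in Th9 arrays (2.71 ± 0.31, 6.52-fold, adjusted p = 0.000659). Bach2, a repressor of effector genes, was higher by 1.52 ± 0.29, lost without Th17 1 or Th9 2 (0.106 and 0.0891) and with the mean of all probe sets (0.0824). S1pr1, Il7r and Dapl1, described above, were the others. Of 21 early T cell receptor response genes, 3 were lower and 18 were not called. They were Dusp5, a phosphatase acting on ERK (-2.58 ± 0.41), the nuclear receptor Nr4a3 (-1.47 ± 0.19) and the calcium-dependent factor Nfatc1 (-1.09 ± 0.18), the last lost without Th17 1 or Th9 2 (0.056 and 0.0544). The Nr4a3 call was not made with the mean of all probe sets (0.193). Of 14 T cell identity genes, 2 were higher, 3 were lower and 9 were not called. Apart from Trat1, the called members were the adhesion molecule Cd2 (0.77 ± 0.17), Cd6 (0.90 ± 0.22) and the receptor chains Cd3g (-0.87 ± 0.17) and Cd247 (-1.15 ± 0.23). Cd6 was not called with centred arrays (adjusted p = 0.0565), nor Cd2 with the 4 arrays alone (0.0562). The call of Cd3g was lost without Th17 1 or Th9 2 and the other 3 without any 1 array (0.0587 to 0.231 over these 4 genes).

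**Figure D3:**
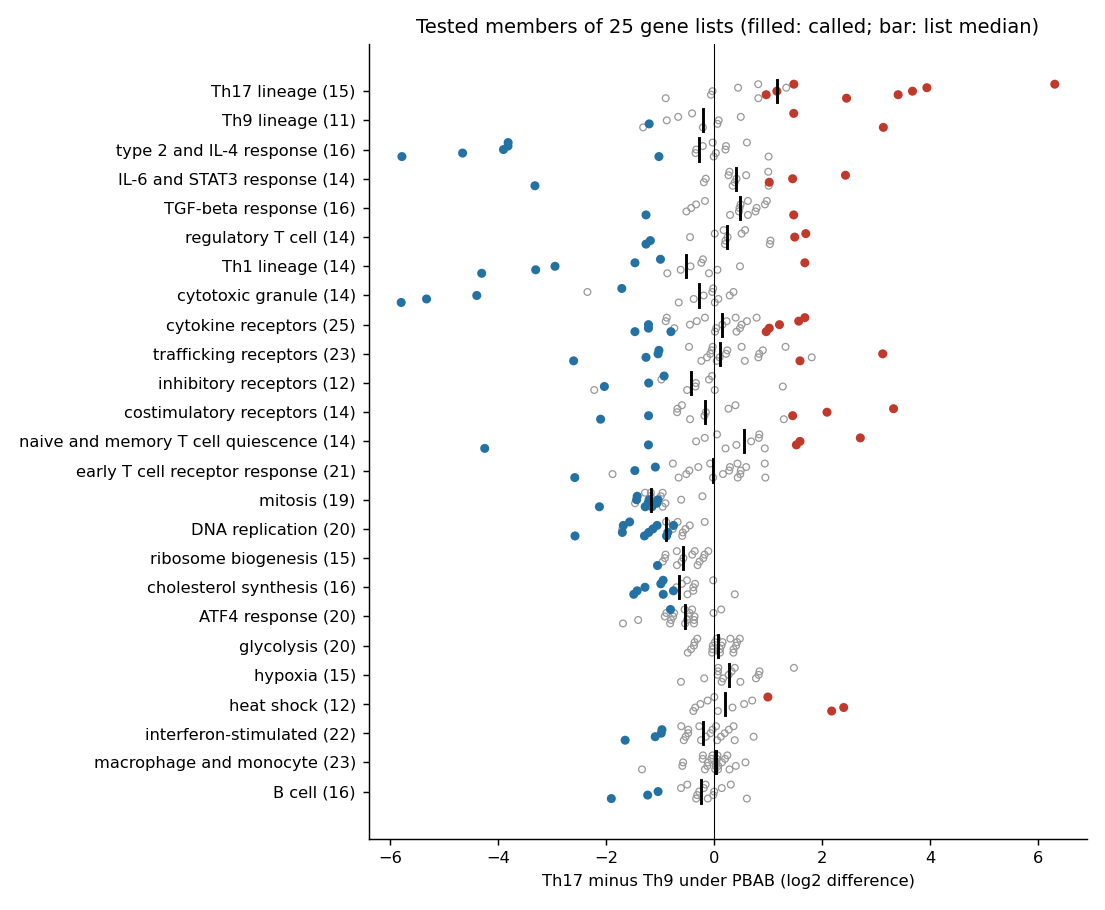
Difference between Th17 and Th9 cultures under PBAB (log2, x axis) of each tested member of 25 gene lists (number of members in brackets), with called genes filled, red where higher and blue where lower in Th17, others open, and a bar at each list's median. The mitosis and DNA replication lists lie below 0 in every member, and the Th17 lineage list has the highest median, 1.16.

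Many genes of the cell cycle were lower in Th17 cultures. All 19 tested genes of mitosis and all 20 of DNA replication had differences below 0, with medians of -1.17 and -0.89 against -0.02 over all genes, and 9 and 11 of them were called. Ttk, the kinase of the spindle checkpoint, read 7.49 and 6.58 in Th17 arrays, against 9.31 and 9.01 in Th9 arrays and 7.96 and 8.04 in Th1 PBAB arrays. Th17 2 was the lowest, and the difference was -2.13 ± 0.29 (4.37-fold lower, adjusted p = 0.00193). Tk1, thymidine kinase, read 7.22 and 5.81 in Th17 arrays, against 9.33 and 8.86 in Th9 arrays (-2.58 ± 0.38, adjusted p = 0.00305), and Cdc45, part of the replicative helicase, 7.11 and 6.11 against 8.42 and 8.16 (-1.68 ± 0.28, adjusted p = 0.00547). Rfc4, a subunit of the clamp loader, differed by -1.29 ± 0.19. Cdk1, the kinase of entry into mitosis, read 9.39 and 8.61 in Th17 arrays, against 10.58 and 10.27 in Th9 arrays, and Aurka, a kinase of the spindle poles, 8.62 and 7.82 against 9.86 and 9.46. Both were lower (-1.43 ± 0.25 and -1.44 ± 0.27), and both calls were lost without Th17 2 or Th9 1 (0.0543 to 0.09). The proliferation marker Mki67 was at 10.17 and 8.55 in Th17 arrays, against 11.17 and 10.48 in Th9 arrays, and was not called (-1.47 ± 0.43, adjusted p = 0.0792).

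The size of these differences depended on the arrays taken. Relative to each gene's mean over the 4 arrays, the median mitosis gene was at -0.08 in Th17 1 and -1.05 in Th17 2, against 0.72 in Th9 1 and 0.41 in Th9 2. The median DNA replication gene was at -0.21 and -0.73 in Th17 arrays, against 0.67 and 0.39 in Th9 arrays. Of the mitosis genes 14 were called without Th17 1, 1 without Th17 2, 1 without Th9 1 and 3 without Th9 2, and of the DNA replication genes 9, 3, 3 and 6. With the replicate block, 18 and 16 were called, all lower. Under HA the medians of the mitosis and DNA replication lists were -0.22 and -0.24, and 0 and 1 of their genes were called in limma. Over all tested genes, 2.16% were called lower under HA, and 1.71% were called for the difference of the differences. The difference of the differences was called for 1 of these genes, Ttk (-1.94 ± 0.42, adjusted p = 0.0485, and 0.0501 to 0.167 under the 11 settings in which the call was lost). Of 15 genes of ribosome biogenesis, all were below 0 (median -0.57) and 1 was called, Nop56 (-1.06 ± 0.19), whose call was lost without Th17 1 or Th9 1 (0.0652 and 0.0674), and with the replicate block 7 were called. Under HA the median of this list was 0.60.

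**Figure D4:**
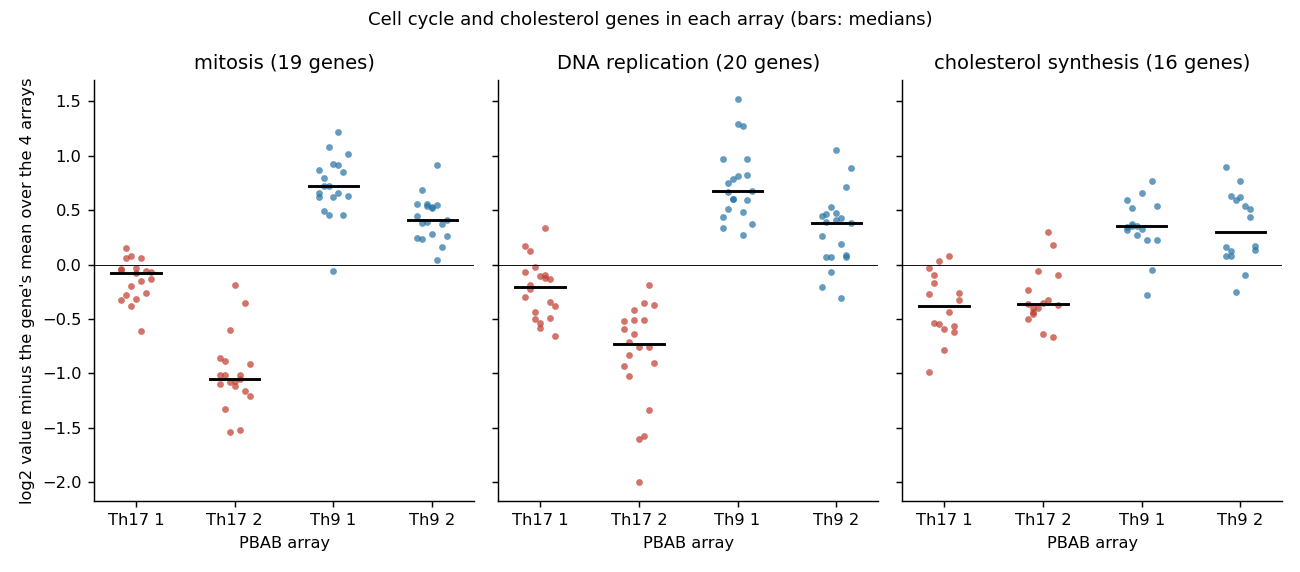
Level of each gene minus its mean over the 4 arrays (log2, y axis) in Th17 arrays 1 and 2 (red) and Th9 arrays 1 and 2 (blue), for 19 mitosis, 20 DNA replication and 16 cholesterol synthesis genes, with bars at the medians. The mitosis medians are -0.08 and -1.05 in Th17 and 0.72 and 0.41 in Th9, so Th17 2 lies lowest, while the cholesterol genes are alike in the 2 arrays of each culture.

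The starts of Ttk and Cdk1 are shown because many mitosis genes share a pair of motifs there. Capitals mark TTTGAA, the cell cycle gene homology region (CHR), and CCAAT, the box bound by NF-Y, on either strand. In RefSeq on GRCm38.p6 the window of Ttk is chr9:83834439-83834738 on the plus strand and that of Cdk1 is chr10:69352863-69353162 on the minus strand.
Ttk: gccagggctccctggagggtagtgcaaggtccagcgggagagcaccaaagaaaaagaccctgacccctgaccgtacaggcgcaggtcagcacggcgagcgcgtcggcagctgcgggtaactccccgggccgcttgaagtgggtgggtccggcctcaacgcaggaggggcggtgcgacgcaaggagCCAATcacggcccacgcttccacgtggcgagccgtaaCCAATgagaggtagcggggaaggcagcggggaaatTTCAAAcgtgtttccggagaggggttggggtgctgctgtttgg
Cdk1: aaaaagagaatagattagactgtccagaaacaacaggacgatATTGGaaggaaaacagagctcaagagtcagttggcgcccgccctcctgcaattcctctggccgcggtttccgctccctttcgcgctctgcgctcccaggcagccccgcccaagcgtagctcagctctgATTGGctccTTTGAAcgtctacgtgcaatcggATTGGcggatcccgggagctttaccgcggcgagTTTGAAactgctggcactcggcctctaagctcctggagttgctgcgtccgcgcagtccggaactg
Of the 16 windows found for mitosis genes, 12 held both motifs (75%), against 7.0% of all 32851 windows. In DNA replication, 2 of 19 windows (10.5%) held both. Alone, TTTGAA was found in 17.9% and CCAAT in 37.4% of all windows, and the marked motifs did not overlap. These shares describe the letters of a window and not binding.

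Several cholesterol synthesis genes were also lower in Th17 cultures, with 7 of 16 lower, none higher and 9 not called, 15 of 16 below 0 and a median of -0.65. The list mean was 9.63 and 9.71 in Th17 arrays, 9.90 and 9.67 in Th1 PBAB arrays and 10.36 and 10.35 in Th9 arrays. Th17 and Th1 arrays thus overlapped, and both Th9 arrays lay above them. The list median was -0.14 for Th17 minus Th1 under PBAB and 0.52 for Th9 minus Th1. Hmgcs1, which makes HMG-CoA for the pathway, read 10.22 and 10.71 in Th17 arrays, against 11.81 and 12.10 in Th9 arrays and 11.46 and 11.40 in Th1 PBAB arrays. Both Th17 arrays were the lowest, and the difference was -1.49 ± 0.21 (2.81-fold lower, adjusted p = 0.00233). Idi1, the isomerase of isoprenoid units, read 9.58 and 9.72 in Th17 arrays, against 11.02 and 11.13 in Th9 arrays (-1.43 ± 0.15, 2.69-fold lower, adjusted p = 0.000453). These 2 calls held without any 1 array. The later enzymes Cyp51 (-0.99 ± 0.17), Msmo1 (-0.95 ± 0.20), Nsdhl (-0.94 ± 0.21) and Dhcr7 (-1.28 ± 0.31), and Fdps of the isoprenoid part (-0.76 ± 0.19), were the others. With the mean of all probe sets, Msmo1 and Fdps were not called (adjusted p = 0.0553 and 0.126). Fdps was also not called with centred arrays (0.0523) or with the 4 arrays alone (0.0743). The call of Cyp51 was lost without Th17 1 or Th9 2 (0.0509 and 0.0592), and those of Msmo1, Nsdhl, Dhcr7 and Fdps without any 1 array (0.0621 to 0.257). Leaving out 1 array left 2 calls without Th17 1 or Th9 2 and 3 without Th17 2 or Th9 1, while the list median stayed at -0.72 to -0.57. The median gene was at -0.38 and -0.37 in Th17 arrays, against 0.35 and 0.30 in Th9 arrays relative to its mean over them, so the list did not follow Th17 2 as the cell cycle lists did. Under HA, on other arrays, 10 of the 16 were lower in Th17 (2.16% of all genes were called lower there), with a median of -1.10. With the 4 HA arrays alone, Idi1, Cyp51, Dhcr7 and Fdps lost the HA call (adjusted p = 0.131, 0.0507, 0.0623 and 0.0595). In that fit 310 of all genes were called under HA, against 739 in the main fit. The HA calls of Idi1, Dhcr7 and Fdps were also lost without some single HA arrays.

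The windows of Hmgcs1 and Idi1 are shown as those of the 2 cholesterol genes with the smallest p. Capitals mark CACCCCAC, the core of a sterol regulatory element, which only the first holds, and CCAAT. In RefSeq on GRCm38.p6 they are chr13:119690101-119690400 and chr13:8885356-8885655, both on the plus strand.
Hmgcs1: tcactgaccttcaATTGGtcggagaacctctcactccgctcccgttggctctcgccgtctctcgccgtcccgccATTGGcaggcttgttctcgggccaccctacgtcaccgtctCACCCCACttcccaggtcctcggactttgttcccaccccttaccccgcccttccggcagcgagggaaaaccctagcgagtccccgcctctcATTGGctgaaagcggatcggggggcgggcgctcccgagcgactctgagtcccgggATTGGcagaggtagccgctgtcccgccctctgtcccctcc
Idi1: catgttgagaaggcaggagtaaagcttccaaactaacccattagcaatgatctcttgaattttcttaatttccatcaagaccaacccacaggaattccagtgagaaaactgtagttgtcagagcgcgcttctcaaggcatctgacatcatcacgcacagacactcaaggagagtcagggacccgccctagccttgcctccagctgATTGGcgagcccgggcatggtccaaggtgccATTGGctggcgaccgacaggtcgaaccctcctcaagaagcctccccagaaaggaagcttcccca
Of 14 windows found for 12 of the cholesterol genes, 1 held CACCCCAC (2.9% of all windows did) and 12 held CCAAT.

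Counts in other metabolic and stress lists are read against the 6.37% of all genes called, or against 2351 of 15498 with the replicate block. None of 20 glycolysis, 15 hypoxia, 15 p53 target and 14 unfolded protein response genes was called by limma, with medians of 0.08, 0.27, -0.05 and -0.24. With the replicate block 1 hypoxia gene was higher, and 1 unfolded protein response gene was higher and 3 were lower. Up to 2 hypoxia genes were higher under other settings. Of 20 ATF4 response genes, which answer a shortage of amino acids, 19 were below 0 (median -0.54) and 1 was called, Mthfd2 (-0.82 ± 0.21), an enzyme of mitochondrial folate metabolism. The call of Mthfd2 was lost without any 1 array (adjusted p = 0.0787 to 0.281), with centred arrays (0.0637) and with the 4 arrays alone (0.0688), whereas with the replicate block 9 members were called lower. Of 12 heat shock genes, 3 were higher and 9 were not called. The inducible chaperone genes Hspa1b and Hspa1a read 10.68 and 10.06, and 8.63 and 7.83, in Th17 arrays, against 8.40 and 7.99, and 6.41 and 5.25, in Th9 arrays. Neither overlapped, and they were higher by 2.17 ± 0.27 and 2.40 ± 0.35. These 2 genes are near-identical copies whose signals may cross-hybridise. Hspa4l was higher by 0.99 ± 0.22, lost without any 1 array (0.0636 to 0.16). Of 22 interferon-stimulated genes 4 were lower and 18 were not called. They were Usp18 (-1.65 ± 0.28), Ifit2 (-1.09 ± 0.27), Ifih1 (-0.98 ± 0.21) and Irgm1 (-0.97 ± 0.22), and 0 to 2 calls were left without 1 array, with 0 without Th17 1, 2 without Th17 2 and 1 without Th9 1 or Th9 2.

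Marker lists of other cell types are read against the 6.37% of all genes called, or against 2351 of 15498 with the replicate block. None of 23 macrophage and monocyte, 8 mast cell and basophil and 9 neutrophil genes was called by limma, and 11, 4 and 6 of them were under the threshold in all 4 arrays. With the replicate block 1 macrophage and monocyte gene was lower. The mean macrophage level was 4.79 and 4.97 in Th17 arrays, against 4.81 and 5.06 in Th9 arrays, which overlapped, and 9.34 to 9.64 in the arrays of splenocytes labelled APC alone. Of 16 B cell genes, 3 were lower, Ighm (-1.23 ± 0.23), Cd79b (-1.04 ± 0.19) and Cd74 (-1.91 ± 0.48), and 13 were not called. Leaving out 1 array left 0 of these calls without Th17 1, 2 without Th17 2 or Th9 1 and 1 without Th9 2, and with the mean of all probe sets Ighm was not called (adjusted p = 0.564). Cd74 was not called with centred arrays (adjusted p = 0.0565). Ms4a1, a defining B cell marker, was at 4.83 and 4.52 in Th17 arrays, against 5.00 and 5.35 in Th9 arrays, near or under the threshold. Of 10 dendritic cell genes, 1 was lower, H2-DMb2 (-0.99 ± 0.17), lost without Th17 1 or Th9 1 (0.0553 and 0.0685).

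The same pair of cultures under HA shared no array with PBAB. There HEL was at 2 µg/ml in Th17 and 1 µg/ml in Th9 cultures, and splenocytes were present, so the stimulus itself differed. Under HA 739 genes were called (4.77%), 404 higher (2.61%) and 335 lower (2.16%) in Th17. Called in both with the same sign were 261 genes, 26.4% of those called under PBAB and 35.3% of those called under HA, and 16 were called with opposite signs. Across all tested genes the 2 sets of differences correlated at r = 0.38, a description over genes that share libraries. The difference of the differences was called in 265 genes (1.71%), 94 above (0.607%) and 171 below 0 (1.1%), and in 1476 with the replicate block. Leaving out 1 of the 8 arrays left 75 calls without Th17 PBAB 1, 143 without Th17 PBAB 2, 78 without Th9 PBAB 1 and 182 without Th9 PBAB 2. It left 240, 64, 118 and 141 without Th17 HA 1, Th17 HA 2, Th9 HA 1 and Th9 HA 2.

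Serpinb1a, Il17a and Il21 had large differences under both activations, at 6.34, 6.31 and 3.41 under PBAB and 5.47, 4.35 and 3.78 under HA. The Il17a difference was 1.96 ± 0.43 larger under PBAB and was not called (limma adjusted p = 0.0502). It was called with the replicate block (0.0155), with values quantile-normalized again (0.0323) and with the mean of all probe sets (0.0465). With the mean of all probe sets the Il17a value itself was the same, at 1.96, and only the other genes in the fit changed. Without Th17 HA 1 it was 2.48. Il5 read 3.74 and 4.50 in Th17 HA arrays, against 5.37 and 5.20 in Th9 HA arrays, a difference of -1.17 ± 0.24, which was smaller in size than the -4.66 under PBAB (-3.49 ± 0.34, adjusted p = 0.00174). Dapl1 did not overlap under PBAB but read 5.85 and 6.36 in Th17 HA arrays, against 5.85 and 5.95 in Th9 HA arrays (difference of differences -4.45 ± 0.30, adjusted p = 0.000193). Lbp was high in Th17 under PBAB, while Th17 HA arrays read 6.58 and 6.35, against 5.22 and 5.74 in Th9 HA arrays (4.10 ± 0.52, adjusted p = 0.00651). Tiam1, an exchange factor for Rac, turned its direction, at 8.86 and 8.71 in Th17 PBAB arrays, against 5.98 and 5.44 in Th9 PBAB arrays, and at 7.97 and 7.45 in Th17 HA arrays, against 9.94 and 9.42 in Th9 HA arrays (5.04 ± 0.42, adjusted p = 0.00114). Pdcd1lg2, lower in Th17 under PBAB, read 7.71 and 7.92 in Th17 HA arrays, against 7.46 and 7.27 in Th9 HA arrays (-2.49 ± 0.31, adjusted p = 0.00542).

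Other differences of the pair were larger in size under HA than under PBAB. Under PBAB Ccr6 and Il17rb went the same way as under HA and did not overlap, but neither was called in the main fit. Ccr6, the chemokine receptor of Th17 cells, read 9.69 and 9.63 in Th17 HA arrays, against 5.45 and 5.62 in Th9 HA arrays, whereas under PBAB it read 8.22 and 7.29 against 7.10 and 6.78 (difference of differences -3.31 ± 0.43, adjusted p = 0.00685). Il2 read 7.0 and 7.61 in Th17 HA arrays, against 4.13 and 4.75 in Th9 HA arrays, and was under the threshold in all 4 PBAB arrays (-3.08 ± 0.39, adjusted p = 0.00611). Il17rb read 5.12 and 5.71 in Th17 HA arrays, against 10.04 and 9.65 in Th9 HA arrays, far apart in comparison with PBAB (3.55 ± 0.34, adjusted p = 0.00174). Chil3, a chitinase-like protein of alternatively activated macrophages, was under the threshold in all 4 PBAB arrays and read 2.93 and 3.66 in Th17 HA arrays, against 9.11 and 9.07 in Th9 HA arrays (5.56 ± 0.35, adjusted p = 0.000179). HA cultures held splenocytes and PBAB cultures did not. Of 23 macrophage genes 8 were higher in Th17 under HA and none lower, against 2.61% higher and 2.16% lower over all genes. The part of splenocytes in the HA differences was not tested. The tests of Il5, Dapl1, Lbp, Tiam1, Pdcd1lg2, Ccr6, Il2, Il17rb and Chil3 were past the threshold under all 18 alternative settings.

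**Figure D5:**
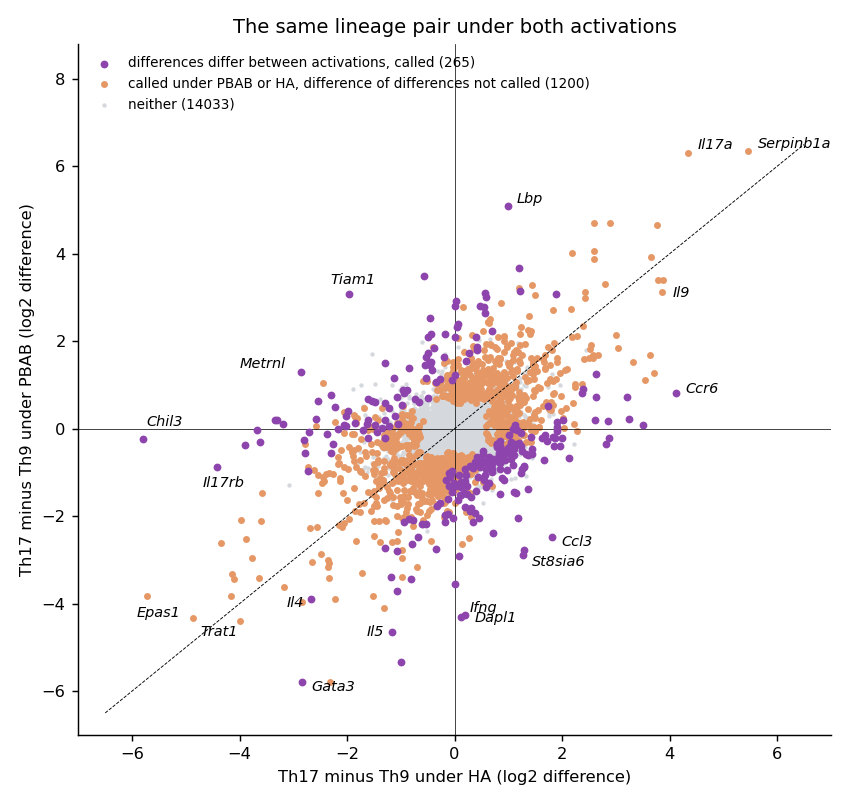
Difference between Th17 and Th9 cultures (log2) under PBAB (y axis) against that under HA (x axis), with 265 genes whose differences differ between the activations in purple, 1200 others called under either activation in orange and 14033 in grey, and a dashed line of equality. Il17a and Serpinb1a lie at the upper right, Dapl1 and Ifng near 0 on the x axis only, and Chil3 near 0 on the y axis only.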

How the data were processed

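The deposited table held log2 expression values of 45101 probe sets on 15 arrays, made by the authors with RMA, per the submitters' processing notes, and the RMA version was not given in the sources used here. The log2 scale was read from the values. Gene names came from the array platform's annotation, dated 2016. Of the probe sets, 34958 had 1 symbol, 932 had several and 9211 were unnamed here. Each of 18194 symbols was represented by the probe set with the highest mean over the 15 arrays, and 15498 genes above the 40th percentile of the table (5.07) in at least 2 arrays were tested.

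With limma 3.58.1 in R 4.3.3, all 15 arrays entered a linear model with a mean for each group, moderated by empirical Bayes, leaving 6 residual degrees of freedom. The APC alone groups held 1 array each, so the spread came from the 12 activated arrays only. P-values were adjusted by Benjamini-Hochberg over all genes tested, at a threshold of 0.05. With 2 arrays per group the number of arrays limits the precision, and since the labels do not say from which animals or cultures the replicates came, p-values measure the spread between these arrays. Deviations from group means of same-numbered arrays correlated at 0.296 to 0.708 over 15 pairs, so the numbers were taken to pair the arrays. The main fit leaves this pairing out, and the fit with the replicate number as a block was an alternative. On simulated data for this comparison with 15498 genes, 60% of 100 genes changed 2-fold and 97% of 100 changed 4-fold were recovered, with 8 false calls.

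Genes are named by rule: the 15 largest called differences each way, a fixed set of lineage genes, called members of each list (up to 8 by smallest p) with members needed to account for the rest, and the 8 largest differences of differences each way. This gave 136 genes. Other members whose values are printed were chosen after their values were seen. The comparison, the 35 lists (545 of 586 entries matched) and the rule were chosen with earlier results of these data known. More than 1 probe set passed the filter for 68 named genes, and in 0 of them did another move the opposite way with p under 0.05 in both. Promoter windows were taken from RefSeq on GRCm38.p6, and the motifs were searched as printed on both strands. Alternatives were the filter, centring, renewed quantile normalization, the mean of all probe sets, other sets of arrays, an intensity trend, array weights, the replicate block and leaving out each array.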

Additional observations from a re-analysis of the deposited data

Results flagged for a closer look

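By the interaction term of the limma fit, the difference between Th17 and Th9 cultures differed between PBAB and HA in 33 named genes. Some of them were named because they had the largest differences of differences in this same test. This count was thus partly fixed by the choice of genes and is not a rate. Over all 15498 tested genes, 265 were called by this term (1.71%). The values below are the PBAB difference minus the HA difference (log2), so a value below 0 means that Th17 minus Th9 was lower under PBAB. HEL dose and the presence of splenocytes differ between the activations and cultures, and their part was not tested.

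The 20 genes below 0 were led by Dapl1 at -4.45, Ifng at -4.43, Nkg7 at -4.32, Ccl3 at -4.29, St8sia6 at -4.17 and Ipcef1 at -4.07. Lad1 was at -3.57, Il5 at -3.49, Ccr6 at -3.31, Il2 at -3.08 and Gata3 at -2.95. Nr4a3 was at -2.62, Pdcd1lg2 at -2.49, Ccl4 at -2.31, Ttk at -1.94 and Ighm at -1.87. Tnfsf8 was at -1.65, Nop56 at -1.64, Cd274 at -1.33 and Il4 at -1.24.

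The 13 genes above 0 were led by Chil3 at 5.56, Tiam1 at 5.04, Metrnl at 4.16, Lbp at 4.10 and S1pr3 at 4.06. Fgl2 was at 3.65, Il17rb at 3.55, Il6 at 3.54 and Ltb4r1 at 2.48. Hspa1b was at 2.35, Hspa1a at 2.34, Il4ra at 2.09 and Icos at 2.00.

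Of these genes, 14 were called under all 18 alternative settings, namely Dapl1, Ccl3, St8sia6, Ipcef1, Il5, Ccr6, Il2, Pdcd1lg2, Il17rb, Fgl2, Lbp, Metrnl, Tiam1 and Chil3. The other 19 lost the call under at least 1 setting.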

How the results depend on the processing

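Of 121 named genes called in Th17 minus Th9 under PBAB, 60 kept the call under all 14 settings and 61 lost it under at least 1, and the cause was not tested. Under the settings other than the replicate block and leaving out 1 array, 865 to 1129 genes were called, and no called gene reversed. With the replicate block, 944 genes were higher and 1407 lower under PBAB, 1092 higher and 739 lower under HA, and 472 above and 1004 below 0 for the difference of the differences. All 121 named calls held with the block, which added Ahr, Il4ra, Metrnl and Il17rb. With only the arrays of the comparison, 155 genes were higher and 155 lower under HA, and 77 were below 0 for the difference of the differences.

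Leaving out 1 array gave 192 to 221 higher and 246 to 309 lower genes under PBAB, 151 to 217 higher and 157 to 239 lower under HA, and 27 to 97 above and 37 to 143 below 0 for the difference of the differences. Of the called differences of differences, 35.5% were above 0, against 46.4% (136 above, 157 below) with values quantile-normalized again and 61% (86 above, 55 below) without Th9 HA 2. Of the uncalled genes, Csf2 and Fgl2 changed sign. Csf2 ranged from -1.22 to 0.00068 when 1 array was left out, and Fgl2 from -0.16 to 0.11, and Fgl2 was at 0.034 with the mean of all probe sets. With 2 arrays per group, 2-fold differences are often missed, and values under the filter threshold cannot be told from background.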
